A study of Mus musculus with 20 samples.

Results

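Extracellular matrix proteases and their inhibitors were followed in whole mouse lung by gene name. The 46 genes are those of the deposited table, out of 30691 named rows, whose symbol is Mmp with a number, Adamts or Adamtsl with a number, or Timp1 to Timp4. They comprise 19 matrix metalloproteases (MMPs), 18 ADAMTS proteases, 5 ADAMTS-like proteins and 4 tissue inhibitors of metalloproteases (TIMPs). They were picked by name, with earlier results of these data known. Of the 51 annotated mouse genes with such a name, Mmp1a, Mmp1b, Mmp7, Mmp20 and Adamts16 had no row and were not analysed here. The genes were tested where the signal reached 10 in at least 4 libraries, which held for 43 of the 46, with 17 MMPs, 17 ADAMTS genes, 5 ADAMTS-like genes and 4 TIMPs.

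Lungs of wild-type (WT) C57BL/6 mice and of mice labelled as knockouts of the vasoactive intestinal peptide gene (VIPKO) were compared. Mice of each genotype breathed 21% oxygen (normoxia) or 10% oxygen (hypoxia), the latter for 4 weeks. WT lungs gave 6 libraries in normoxia and 5 in hypoxia, and VIPKO lungs gave 4 in normoxia and 5 in hypoxia. All 20 carry the same batch label. The titles and the design text say knockout and the genotype field says knockdown. The sources used here give neither ages nor the strain background of the VIPKO mice. They do not say that each library came from its own animal. The p-values therefore reflect only how far these samples differ, part of which may be technical.

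MMPs are zinc proteases that cut collagens, gelatin, elastin and many cell surface proteins, and most are made as inactive precursors. The membrane-type MMPs stay on the cell surface, and Mmp14, the best known, activates the Mmp2 precursor. ADAMTS proteases are secreted and carry thrombospondin repeats that hold them in the matrix. Some cut the proteoglycans versican and aggrecan, some trim procollagens, and Adamts13 cuts von Willebrand factor. ADAMTS-like proteins have the same repeats and no protease domain, and several bind fibrillin microfibrils. TIMPs block the active site of MMPs, and Timp3, which stays bound to the matrix, also blocks several ADAMTS enzymes. In the lung these proteins take part in the remodelling of vessel walls and alveolar septa.

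Adamtsl4, Adamts9 and Adamts17 were among the genes that differed most clearly between groups, so the 250 bases before their start sites are printed here. Mmp16 and Adamts10, which also differed, had no matched sequence. The sequences and start sites are RefSeq's for GRCm38.p6, and the choice was made after the values were seen. For Adamts9 the GENCODE annotation, used below for exons, has another start, chr6:92943492, which the printed window does not border. Capitals mark ACGTG and GCGTG, the core letters that hypoxia-inducible factors are known to bind, read on either strand. The Adamtsl4 sequence lies at chr3:95687918-95688167 on the minus strand, that of Adamts9 at chr6:92943535-92943784 on the minus strand, and that of Adamts17 at chr7:66839485-66839734 on the plus strand.
Adamtsl4: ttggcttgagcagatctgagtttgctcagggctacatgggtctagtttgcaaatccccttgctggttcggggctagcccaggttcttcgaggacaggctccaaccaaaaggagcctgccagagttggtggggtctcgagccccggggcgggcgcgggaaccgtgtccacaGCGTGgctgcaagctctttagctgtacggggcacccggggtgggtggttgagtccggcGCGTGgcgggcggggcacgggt
Adamts9: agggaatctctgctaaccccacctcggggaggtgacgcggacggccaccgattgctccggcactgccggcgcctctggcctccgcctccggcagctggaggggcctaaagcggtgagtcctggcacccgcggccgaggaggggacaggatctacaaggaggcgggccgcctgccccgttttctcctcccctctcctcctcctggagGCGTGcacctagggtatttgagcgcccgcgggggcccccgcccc
Adamts17: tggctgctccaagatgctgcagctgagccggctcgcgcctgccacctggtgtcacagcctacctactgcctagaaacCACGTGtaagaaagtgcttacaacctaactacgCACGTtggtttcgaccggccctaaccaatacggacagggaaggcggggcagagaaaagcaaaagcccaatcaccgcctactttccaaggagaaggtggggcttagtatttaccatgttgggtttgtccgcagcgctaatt
The Adamtsl4 sequence held GCGTG in 2 places and that of Adamts9 in 1 place. The Adamts17 sequence held ACGTG 3 times when both strands are counted, the palindrome CACGTG counting on each. Among 32851 RefSeq promoter windows of the same length, 16.6% held ACGTG and 28.2% held GCGTG, and 38.6% held either. Of the 34 windows matched to 32 of the genes here, 15 held either. A match describes the letters only, and binding was not measured.

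Some properties of the libraries touch the results below. Depth estimated from the smallest step between low values ran from 4.96 M to 56.7 M reads (median 17.8 M), and WT hypoxia 4 was the shallowest library. WT hypoxia 4 also stood apart in the protease genes. It was the highest of the 5 WT hypoxia libraries in 12 of 17 ADAMTS genes, and it lay below all WT normoxia libraries in 3 of 17, against 8 to 14 of 17 in the other WT hypoxia libraries. Its summed signal of 8 smooth muscle and pericyte markers, 34650, was the highest of all 20 libraries, against 8075 to 25657 in the other WT hypoxia libraries and 14205 to 30770 in WT normoxia. Its signal of Plvap, 1 of 8 endothelial markers, was 2134, among the other WT hypoxia libraries (1449 to 3094) and under all WT normoxia libraries (5443 to 6340). The sum of the 8 endothelial markers in WT hypoxia 4, 57512, lay inside the WT normoxia range (54272 to 68673). The other WT hypoxia libraries had 36712 to 53155. Its airway epithelial sum, 159513, also lay inside the WT normoxia range (140431 to 197562), under the other WT hypoxia libraries (236189 to 381986). Mitochondrial ribosomal RNA ran from 97.7 to 2075 in WT normoxia, from 396 to 7058 in WT hypoxia, from 12034 to 27208 in VIPKO normoxia and from 4506 to 9415 in VIPKO hypoxia, so in normoxia it cannot be told apart from genotype. Skeletal muscle genes summed to 26131 in WT hypoxia 5 and thymus genes to 16918 in VIPKO hypoxia 3. Vip, the gene that the VIPKO label names, did not separate the genotypes. It ran from 0 to 93.0 in WT normoxia (median 3.64), from 0 to 6.77 in WT hypoxia (2.37), from 1.16 to 5.54 in VIPKO normoxia (4.79) and from 1.08 to 106 in VIPKO hypoxia (2.17). The 2 high values were those of WT normoxia 5 and of the library labelled VIPKO hypoxia 4, and genotype is used below as labelled. Markers of lung cell types were present in every library and differed between groups. Summed airway epithelial markers were 140431 to 197562 in WT normoxia, 159513 to 381986 in WT hypoxia, 233206 to 418464 in VIPKO normoxia and 197685 to 317894 in VIPKO hypoxia. Summed endothelial markers were 54272 to 68673, 36712 to 57512, 46446 to 52966 and 37939 to 50578 in the same order. The sum of the cartilage markers, among them the ADAMTS substrate genes Acan and Comp, was at most 29.1.

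Levels between genes are compared on the scale of deposited signal per kb of annotated exon. In WT normoxia Timp2 (2918 ± 325, SD, n = 6) and Timp3 (2726 ± 648) were the highest of the 46 genes, and their ranges overlapped. Mmp15, a membrane-type MMP, followed with 890 ± 108. Adamts1 had 683 ± 116, Adamts10 628 ± 59.2 and Mmp2, gelatinase A, 566 ± 55.5, and each of these ranges overlapped the next in order. Adamtsl4 followed with 436 ± 30.2, and its highest library (466) lay just under the lowest library of Mmp2 (470). Together Timp2 and Timp3 gave 98.6% ± 0.523 of the summed TIMP level per kb over the 20 libraries. The TIMPs gave between 40.8% and 62.8% of the summed level of all 46 genes, the lowest share being in WT hypoxia 4.

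**Figure D1:**
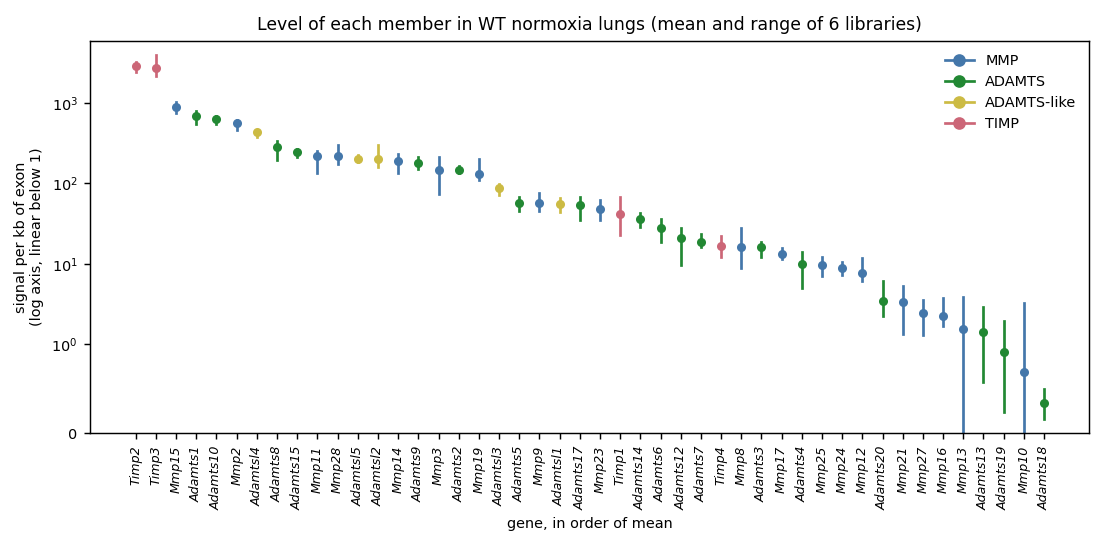
Level of each of the 46 genes in WT normoxia lungs, as signal per kb of annotated exon on a log axis that is linear below 1; points are means of 6 libraries and bars run from the lowest to the highest library. Timp2 and Timp3 stand above all other genes, and Adamts18 and Mmp10 are lowest.

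The lower end of the order held genes that were close to the detection limit. Mmp10 (stromelysin 2) was listed at 0 in most libraries and reached at most 5.66. Mmp27 reached at most 12.8 and Adamts18 at most 5.03, and these genes were not tested. For counting error only, a count of 0 allows 3 reads, a signal of 1.03 to 11.7 depending on the library. Mmp13, a collagenase, passed the filter through a few libraries, listed at 0 in some, and was highest in VIPKO hypoxia 3 (49.6). Adamts13, Adamts19, Adamts20, Mmp13, Mmp16 and Mmp21, all tested, had under 5 signal per kb in WT normoxia. Median estimated reads a library were 5 to 11 for Adamts13, Adamts19, Mmp13 and Mmp21, so their changes rest on few reads. The median was 28.5 for Mmp16 and 42.5 for Adamts20, against 27.5 for Adamts4 and 26.1 for Mmp24.

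The first comparison was hypoxia against normoxia in WT lungs. ADAMTS genes were lower in hypoxia: 7 of 17 fell and none rose, and the median log2 fold change of the 17 was -0.67, against -0.01 over all tested rows. The ADAMTS-like gene Adamtsl4 also fell, and among the MMPs Mmp16 alone changed and rose. In all, 8 of 43 genes fell and 1 rose, against 6.77% lower, 7.88% higher and 14.7% in either direction of all 21658 tested rows. Each change is a log2 fold change ± SE on the log2(signal + 1) scale, which understates changes of low genes. It was fitted with limma, and a call means a Benjamini-Hochberg adjusted p under 0.05 over all tested rows. In whole lung, fewer cells of a type and less RNA per cell cannot be told apart.

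Of the proteoglycan-cleaving ADAMTS genes, Adamts9 fell most clearly. Its signal in WT normoxia had a lowest value of 2285, a median of 2640 and a highest value of 3206. The WT hypoxia libraries, in order of their numbers, had 656, 622, 651, 1874 and 825. WT hypoxia 4 was well above the other hypoxic libraries, and the groups did not overlap. The change was -1.68 ± 0.24 (adjusted p = 0.00117, limma), and -1.97 ± 0.18 without WT hypoxia 4. Exons of Adamts9 overlap those of A730049H05Rik on the opposite strand over 1381 bases, and the counting strand is not given in the sources used here.

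Adamts8, of the same proteoglycan-cleaving class, ranged in WT normoxia from 916 through a median of 1317 to 1570. Its WT hypoxia values were 543, 657, 838, 1189 and 923, of which the last pair lay inside the WT normoxia range. The change was -0.69 ± 0.17 (adjusted p = 0.0141, limma). Adamts4, a main aggrecan- and versican-cleaving enzyme, was low. It reached 67.8 in WT normoxia, with a median of 50.4, and was 7.12, 5.08, 8.30, 81.6 and 21.7 in WT hypoxia. Of these, library 4 was above every WT normoxia library and the other 4 were below all of them. Adamts4 changed by -1.58 ± 0.51 (adjusted p = 0.0438, limma), and by -2.18 ± 0.39 without WT hypoxia 4. The lowest Adamts4 value corresponds to 3 estimated reads, and the call was lost when any of 11 of the 20 libraries was left out (adjusted p up to 0.117).

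Adamts15, the neighbour of Adamts8 on chromosome 9 and of the same class, did not pass the test, and it is given because WT hypoxia 4 decides it. It ran from 2208 to 2777 in WT normoxia with a median of 2634, and was 608, 1430, 1437, 3537 and 1220 in WT hypoxia. The other 4 hypoxic libraries were below all normoxic libraries and library 4 was above them. The change was -0.87 ± 0.32 (adjusted p = 0.0643, limma), and -1.21 ± 0.27 (adjusted p = 0.00563) without that library. Adamts1 (0.08 ± 0.20) and Adamts5 (0.16 ± 0.15) did not pass. Adamts20 (0.44 ± 0.30) did not pass either, and it was called higher without WT hypoxia 4 (0.77 ± 0.25).

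The procollagen N-proteinases, which remove the amino-terminal propeptides of fibrillar procollagens, gave 2 calls among 3 genes. Adamts14 ranged in WT normoxia from 150 through a median of 196 to 221, and was 58.6, 132, 91.3, 214 and 88.0 in WT hypoxia. Library 4 lay inside the WT normoxia range and the others below it, and the change was -0.82 ± 0.25 (adjusted p = 0.0350, limma). Adamts3, which also processes the lymphatic growth factor VEGF-C, ranged from 65.4 through 91.7 to 102. It was 30.1, 67.7, 48.4, 62.2 and 58.3 in WT hypoxia, so that library 2 alone reached the WT normoxia range. Its change was -0.74 ± 0.20 (adjusted p = 0.0218, limma). Adamts3 lost the call without WT hypoxia 1 or 3 (adjusted p up to 0.0614) and Adamts14 without any of 7 libraries (up to 0.104). Adamts2, the most abundant of the 3, changed by -0.25 ± 0.20 (adjusted p = 0.385, limma).

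Adamts10 and Adamts17 are relatives that act on fibrillin microfibrils, and mutations of either cause short-stature syndromes with lens defects. Adamts10 was among the highest genes, from 4511 through a median of 5123 to 5747 in WT normoxia. It was 2326, 3396, 2705, 4840 and 2746 in WT hypoxia, with library 4 again inside the normoxic range and the others below it. The change was -0.74 ± 0.19 (adjusted p = 0.0169, limma), and 0.0503 was its adjusted p without WT hypoxia 1. Adamts17 ranged from 271 through 422 to 522 in WT normoxia, and was 82.3, 94.7, 134, 498 and 174 in WT hypoxia. It showed the same split of library 4 from the others, with a change of -1.38 ± 0.33 (adjusted p = 0.0124, limma) and of -1.80 ± 0.24 without it.

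Adamtsl4, a fibrillin-binding protein without protease activity, differed from these genes in that WT hypoxia 4 did not stand apart in it. Its signal in WT normoxia ran from 1591 through a median of 1864 to 1956. In WT hypoxia it was 1381, 1435, 1422, 1516 and 1316, all under the lowest WT normoxia value. The change was -0.37 ± 0.09 (adjusted p = 0.0116, limma). Among the 43 genes, Adamts9, Adamtsl4 and Mmp16 were the 3 whose groups did not overlap in this comparison, against 7.94% of all tested rows. The other 4 ADAMTS-like genes changed by between -0.34 (Adamtsl3) and 0.21 (Adamtsl1) and did not pass.

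Without WT hypoxia 4, 13 of 43 genes fell and 2 rose in WT hypoxia, and calls over all rows went from 3173 to 4711. The genes were 9 ADAMTS genes, 3 ADAMTS-like genes and the stromelysin gene Mmp3 lower, and Mmp16 and Adamts20 higher. WT hypoxia 4 was singled out for its values in these same genes, so the added calls follow in part from that choice. They are no separate support for the fall. The summed signal of the ADAMTS genes was 17032 to 20429 in WT normoxia and 8873 to 13248 in WT hypoxia libraries 1, 2, 3 and 5, and 23638 in WT hypoxia 4. The smooth muscle and pericyte sum in WT hypoxia 1, 2 and 3 was 8075 to 13406, under all WT normoxia libraries, and 25657 in WT hypoxia 5. None of these 8 markers was called by limma in any of the 5 comparisons, 2 had an unadjusted p under 0.05 in WT hypoxia, and their median log2 fold change there was -0.56. Other cell type markers moved in the same comparison. Endothelial markers were called lower in 4 of 8 and higher in 1, with a median of -0.30. Called higher were 5 of 6 airway epithelial markers (median 4.25), 5 of 5 adipocyte markers (5.02) and 4 of 6 lymphatic endothelial markers (1.13). The part of these markers in the ADAMTS result was not tested.

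**Figure D2:**
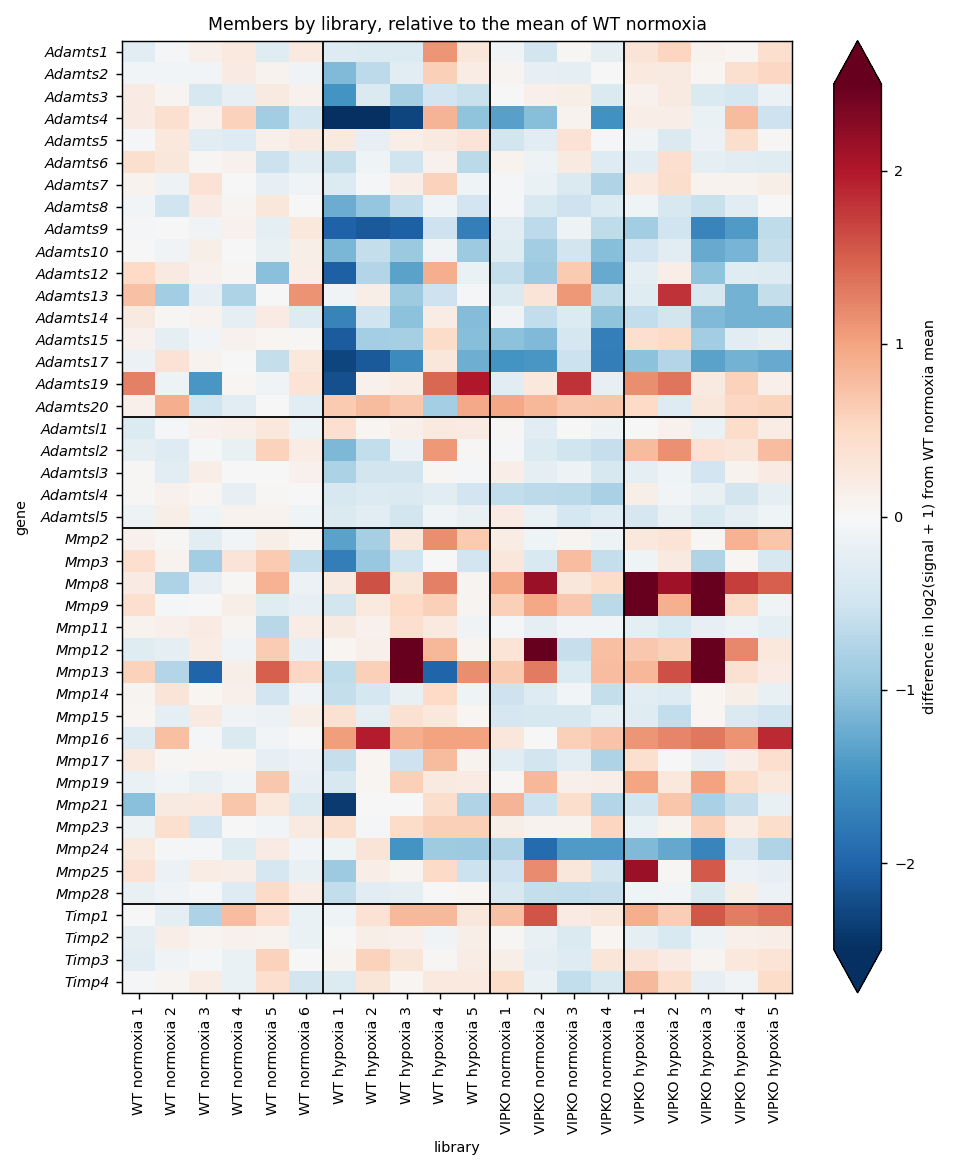
Difference of each tested gene in each of the 20 libraries from the mean of WT normoxia, in log2(signal + 1) with colours that saturate at the ends of the scale; rows are genes by family and columns are libraries by group. Most ADAMTS rows are blue in WT hypoxia 1, 2 and 3 and red or pale in WT hypoxia 4, and Adamts20 goes the other way. The Mmp8, Mmp9 and Mmp12 rows are dark red in a few libraries.

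Mmp16, a membrane-type MMP best known from brain and mesenchyme, was the MMP that rose. Its signal in WT normoxia had a lowest value of 14.5, a median of 18.2 and a highest value of 32.6. It was 39.6, 76.1, 36.0, 38.9 and 38.8 in WT hypoxia, with no overlap between the groups. The change was 1.18 ± 0.25 (adjusted p = 0.00756, limma), at a level of 10 to 129.5 estimated reads a library. In VIPKO normoxia Mmp16 was 23.1, 18.8, 28.8 and 31.4, and in VIPKO hypoxia 41.5, 45.1, 48.5, 41.9 and 70.7. These groups did not overlap either, but the change of 0.93 ± 0.28 did not pass (adjusted p = 0.138, limma). The difference between the genotypes in the response, -0.26 ± 0.37, has a 95% interval from -1.03 to 0.52.

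VIPKO was compared with WT in normoxia, the comparison that addresses what the genotype changes without hypoxia. Adamtsl4, Adamts10 and Adamts17 were lower in VIPKO lungs, as were the membrane-type Mmp24 and the secreted epilysin Mmp28. No gene of the 43 rose, and 5 fell, against 4.69% higher, 3.96% lower and 8.65% in either direction of all tested rows. The median change of the 17 ADAMTS genes was -0.32 and that of the 17 MMPs 0.02, against 0.01 over all tested rows. In the same comparison 5 of 6 airway epithelial markers were called higher (median 4.18) and 2 of 8 endothelial markers lower (-0.27), and their part was not tested.

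Adamtsl4 was 1185, 1161, 1139 and 1034 in VIPKO normoxia, all well under the lowest WT normoxia value of 1591. The change was -0.69 ± 0.09 (adjusted p = 0.00126, limma), the smallest adjusted p of the 43 genes in this comparison. Adamts10 was 4158, 2821, 3777 and 2457, under the lowest WT normoxia value of 4511, a change of -0.68 ± 0.20 (adjusted p = 0.0422, limma). Adamts17 was 144, 147, 282 and 122, of which library 3 reached into the WT normoxia range, a change of -1.30 ± 0.35 (adjusted p = 0.0272, limma). These 3 genes were also lower in WT hypoxia, but both comparisons share the WT normoxia libraries.

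Mmp24 was 24.2, 10.2, 14.8 and 14.9 in VIPKO normoxia and ran in WT normoxia from 33.5 through 40.0 to 49.4. The groups did not overlap, and the change was -1.38 ± 0.33 (adjusted p = 0.0166, limma). Its exons overlap BC029722 on the opposite strand over 637 bases, which leaves the source of these low values uncertain. Mmp28, an epithelial MMP, was 632, 558, 547 and 560 against 669 to 1175 in WT normoxia, with a WT median of 799. These groups did not overlap either, and the change was -0.55 ± 0.14 (adjusted p = 0.0227, limma). Exons of Mmp28 overlap 1700020L24Rik over 466 bases. Mmp24 lost the call without VIPKO normoxia 2 or 4, and Mmp28 without VIPKO normoxia 2, 3 or 4 (adjusted p up to 0.0799 and 0.0813). Adamts17 lost it without any of 4 libraries (up to 0.106) and Adamts10 without any of 7 (up to 0.168).

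Among 43 genes, 7 did not overlap between these groups, against 9.87% of all tested rows. Beyond the called genes these were Mmp15, Mmp17 and Adamts15, all lower in VIPKO. Adamts15 was 1254, 1193, 1932 and 780 in VIPKO normoxia, a change of -1.07 ± 0.34 (adjusted p = 0.0520, limma). It was called when WT hypoxia 4 was left out of the limma fit (adjusted p = 0.0169). The same fit called Adamts20 higher in VIPKO (0.79 ± 0.25, adjusted p = 0.0460), and calls over all rows went from 1873 to 2269. With mitochondrial ribosomal RNA as a covariate in limma, none of the 43 genes and no row of the table was called here (3 genes and 2102 rows had an unadjusted p under 0.05). The same held when the 3 libraries lowest in whole-read values, VIPKO hypoxia 2 and VIPKO normoxia 2 and 3, were left out (7 genes and 3056 rows).

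Hypoxia against normoxia was then tested in VIPKO lungs. Adamtsl4 rose, in the direction opposite to WT, and was the 1 gene of 43 called, against 0.614% of all tested rows called higher, 0.383% lower and 0.997% in either direction. Adamtsl4 was 2021, 1741, 1614, 1327 and 1551 in VIPKO hypoxia, all above the highest VIPKO normoxia library (1185). The change was 0.53 ± 0.10 (adjusted p = 0.00617, limma). The test of the difference between the genotypes gave 0.90 ± 0.13 with a 95% interval from 0.64 to 1.17 (adjusted p = 0.0117, limma), and Adamtsl4 was the 1 gene of 43 called in it, against 0.282% of all tested rows. Both calls and that of Adamtsl4 in VIPKO normoxia share the 4 VIPKO normoxia libraries. The VIPKO hypoxia values overlapped WT normoxia (1591 to 1956) and WT hypoxia (1316 to 1516), and Adamtsl4 was not called between the hypoxic groups. The call of the difference between the genotypes was lost in limma with the mitochondrial covariate (adjusted p = 0.0726) and without the same 3 libraries (0.102). In both runs 0 rows of the table were called for it (2121 and 1867 rows had an unadjusted p under 0.05). The call of hypoxia in VIPKO was lost without those 3 libraries (0.137) and with only the groups compared in the fit (0.0755), where 44 and 134 of all rows were called.

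In this comparison 8 of 43 genes did not overlap between the groups, against 5.13% of all tested rows. Higher in VIPKO hypoxia were Adamts1, Adamts7, Adamtsl2, Adamtsl4, Mmp16, Mmp17 and Mmp28, and lower was Adamts20. Adamtsl2, which binds latent TGF-beta binding protein and fibrillin, was 1570, 1259, 1130 and 1066 in VIPKO normoxia and 2743, 3501, 2041, 1977 and 2742 in VIPKO hypoxia. The change of 1.03 ± 0.30 did not pass (adjusted p = 0.123, limma), and it passed without WT hypoxia 4 (adjusted p = 0.0231). The median change was 0.07 over the ADAMTS genes and 0.34 over the MMPs, against -0.01 over all tested rows. Adamts9 was 2202, 1706, 2470 and 1732 in VIPKO normoxia and 1460, 1907, 852, 1001 and 1735 in VIPKO hypoxia, so the groups overlapped (-0.59 ± 0.27, adjusted p = 0.355, limma).

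The difference between the genotypes in the response to hypoxia was positive for 14 of 17 ADAMTS genes, with a median of 0.63 against 0.01 over all tested rows. In the same difference the smooth muscle and pericyte markers were positive in 8 of 8 (median 0.83) and the substrates in 19 of 21 (0.46), none of them called by limma (3 and 8 had an unadjusted p under 0.05). Airway epithelial markers were negative in 6 of 6 (-4.61), 1 of them called. The part of these markers was not tested, and all genes share the same 20 libraries. Adamts4 (2.62 ± 0.76, adjusted p = 0.124), Adamts15 (1.85 ± 0.47, adjusted p = 0.0885), Adamts17 (1.58 ± 0.49, adjusted p = 0.149) and Adamts9 (1.09 ± 0.36, adjusted p = 0.175) did not pass limma's test. Without WT hypoxia 4, these 4 genes, Adamts8, Adamtsl2 and Adamtsl4 were called, 7 of 43, and calls over all rows went from 61 to 544. The values were then 3.23 ± 0.57 for Adamts4, 2.19 ± 0.38 for Adamts15, 2.00 ± 0.34 for Adamts17 and 1.38 ± 0.26 for Adamts9. Since WT hypoxia 4 was singled out for its ADAMTS values, the added calls are no separate support for a difference.

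**Figure D3:**
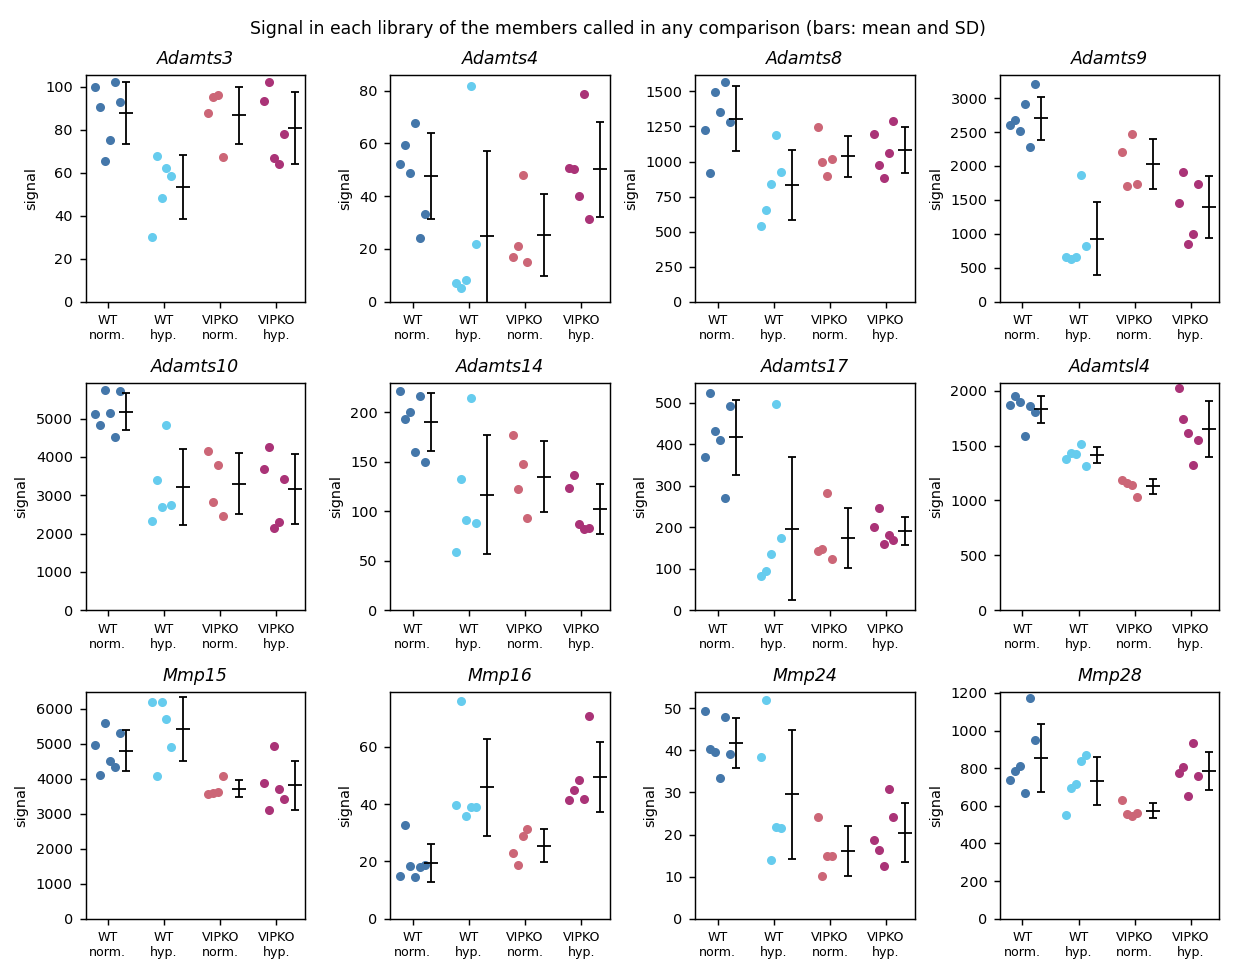
Signal in each library of the 12 genes called in any of the 5 comparisons, with the mean and SD of each group beside the points; groups are WT and VIPKO in normoxia (norm.) and hypoxia (hyp.), and axes are linear from 0. Adamtsl4 is lower in WT hypoxia and VIPKO normoxia than in WT normoxia, and a single WT hypoxia point, library 4, lies high in Adamts4, Adamts9, Adamts10, Adamts14 and Adamts17.

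The last comparison was VIPKO against WT in hypoxia. Mmp15, the most abundant MMP, was lower in VIPKO lungs and was the 1 gene of 43 called, against 0.9% of all tested rows called lower, 0.716% higher and 1.62% in either direction. It was 6201, 4093, 6188, 5718 and 4905 in WT hypoxia and 3881, 3120, 4946, 3714 and 3408 in VIPKO hypoxia, so that WT hypoxia 2, WT hypoxia 5 and VIPKO hypoxia 3 overlapped the other group. The change was -0.51 ± 0.13 (adjusted p = 0.0445, limma). It lost the call when any of 14 of the 20 libraries was left out, among them the library labelled VIPKO hypoxia 4 (adjusted p up to 0.121). In normoxia Mmp15 was also lower in VIPKO, from 3568 to 4089 against 4106 to 5583, with no overlap and no call (-0.36 ± 0.13, adjusted p = 0.0824, limma).

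Of 43 genes, Mmp11 alone did not overlap between the hypoxic groups, against 3.76% of all tested rows, and it did not pass (-0.42 ± 0.14, adjusted p = 0.108, limma). The calls here turned on WT hypoxia 4. Without it Mmp15 was no longer called, and 6 other genes were, all higher in VIPKO, while calls over all rows went from 350 to 608 (257 of them higher). They were Adamts4 (2.27 ± 0.41), Mmp8 (2.27 ± 0.58), Adamtsl2 (1.14 ± 0.22), Adamts15 (1.12 ± 0.28), Adamts9 (0.95 ± 0.19) and Adamts2 (0.75 ± 0.17). Here too the library left out was singled out for its values in the protease genes. Adamts4 in VIPKO hypoxia was 50.6, 50.3, 39.9, 78.6 and 31.2, all above the 4 other WT hypoxia libraries and inside or above the WT normoxia range.

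**Figure D4:**
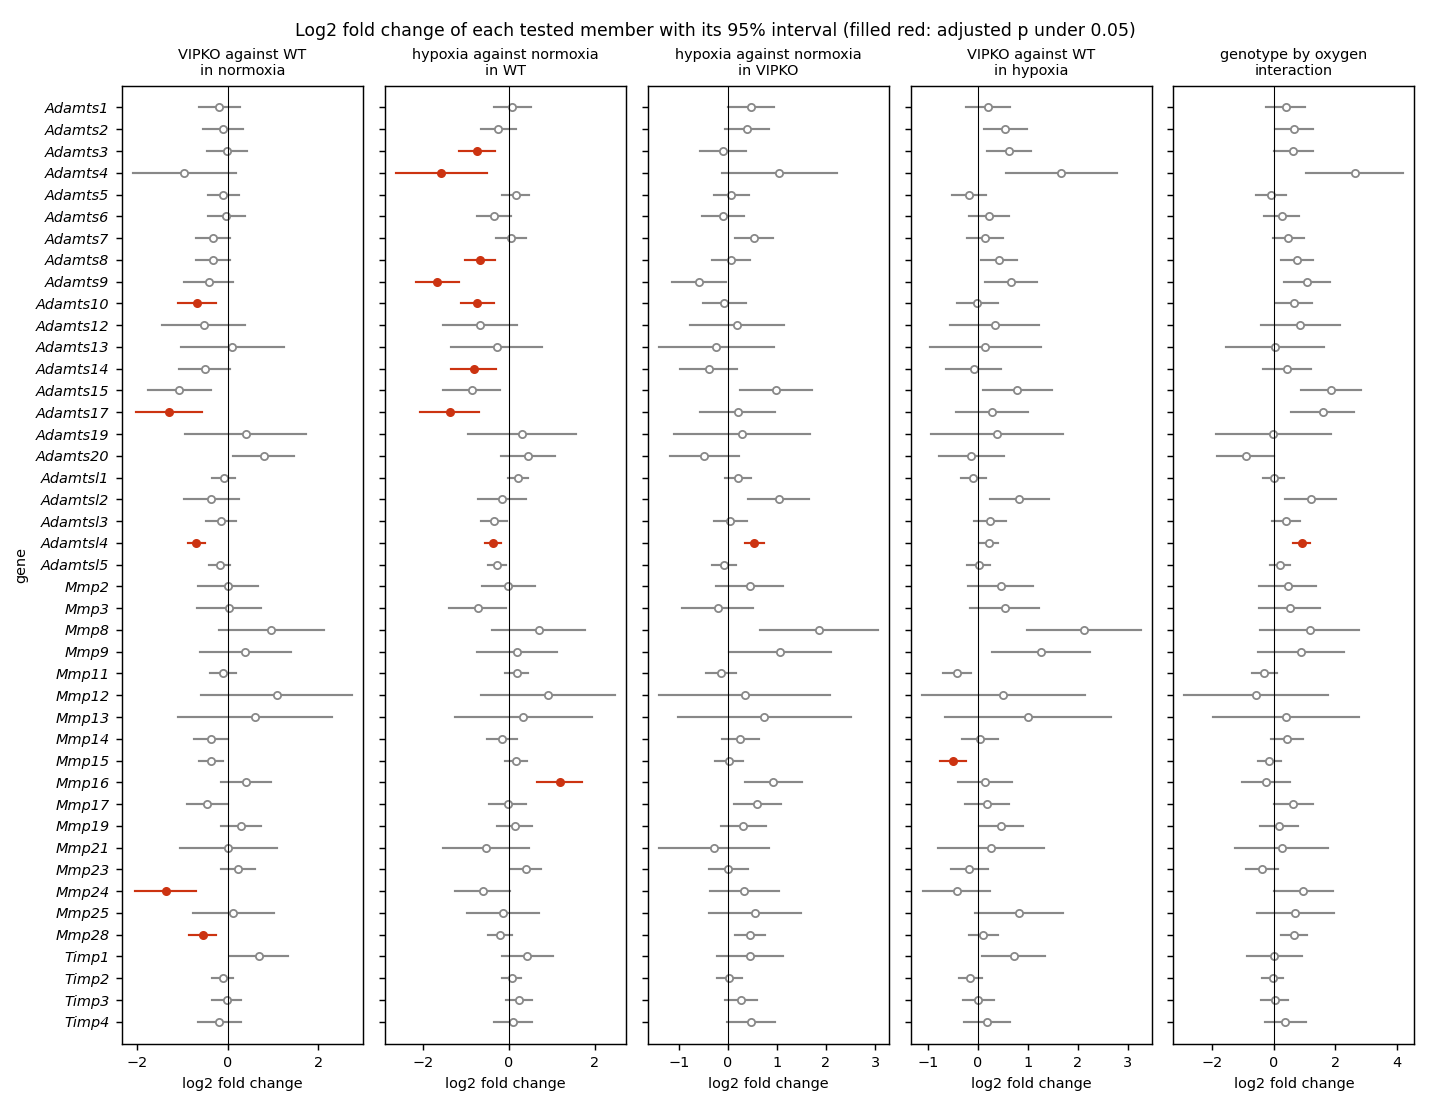
Log2 fold change of each tested gene with its 95% interval in the 5 comparisons, each panel with its own axis; filled red points passed the adjusted p threshold of 0.05. The 7 ADAMTS calls of WT hypoxia all lie left of 0, and Adamtsl4 is called in 4 of the 5 panels, which share libraries.

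Mmp8, neutrophil collagenase, and Mmp9, gelatinase B, were highest in a pair of VIPKO hypoxia libraries. Mmp8 was 1241, 164, 490, 125 and 105 in VIPKO hypoxia and 43.5, 113, 45.7, 89.4 and 38.8 in WT hypoxia. It ran from 21.2 through 35.5 to 68.4 in WT normoxia and was 72.7, 167, 44.8 and 51.2 in VIPKO normoxia. VIPKO hypoxia libraries 1 and 3 stood far above all others, and the change against WT in hypoxia was 2.12 ± 0.54 (adjusted p = 0.0505, limma), just outside the threshold.

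Mmp9 was 1910, 367, 1305, 279 and 187 in VIPKO hypoxia and 145, 235, 279, 299 and 208 in WT hypoxia. The same libraries 1 and 3 were high and the groups overlapped, with a change of 1.26 ± 0.47 (adjusted p = 0.152, limma). Mmp9 ran from 161 through 194 to 266 in WT normoxia and was 301, 389, 316 and 125 in VIPKO normoxia. Mmp25, a membrane-type MMP of leukocytes, was likewise highest in VIPKO hypoxia 1 (227) and 3 (146), and did not pass in any comparison.

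The summed signal of 9 neutrophil markers was 18929 in VIPKO hypoxia 1 and 9924 in VIPKO hypoxia 3. It was 1654 to 5387 in the other VIPKO hypoxia libraries, 738 to 1123 in WT normoxia, 830 to 3526 in WT hypoxia and 1361 to 4480 in VIPKO normoxia. In VIPKO against WT hypoxia 3 of the 9 markers were called higher, with a median change of 2.18. Ly6g and Camp had a median signal under 10. The part of neutrophil RNA in the Mmp8, Mmp9 and Mmp25 values was not tested.

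Mmp12, macrophage elastase, was high in single libraries of 3 groups. It ran from 43.6 through 49.3 to 84.6 in WT normoxia and was 56.2, 59.2, 618, 97.2 and 57.1 in WT hypoxia. It was 69.2, 770, 36.3 and 92.0 in VIPKO normoxia and 87.0, 82.7, 1117, 127 and 65.9 in VIPKO hypoxia. WT hypoxia 3, VIPKO normoxia 2 and VIPKO hypoxia 3 stood far above all others, and no comparison passed, with changes between -0.57 and 1.08. The sum of 8 alveolar macrophage markers was 19656, 74727 and 47458 in those libraries. It was 3373 to 6887 in WT normoxia and 6671 to 20962 in the remaining libraries, and its part in the Mmp12 values was not tested.

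**Figure D5:**
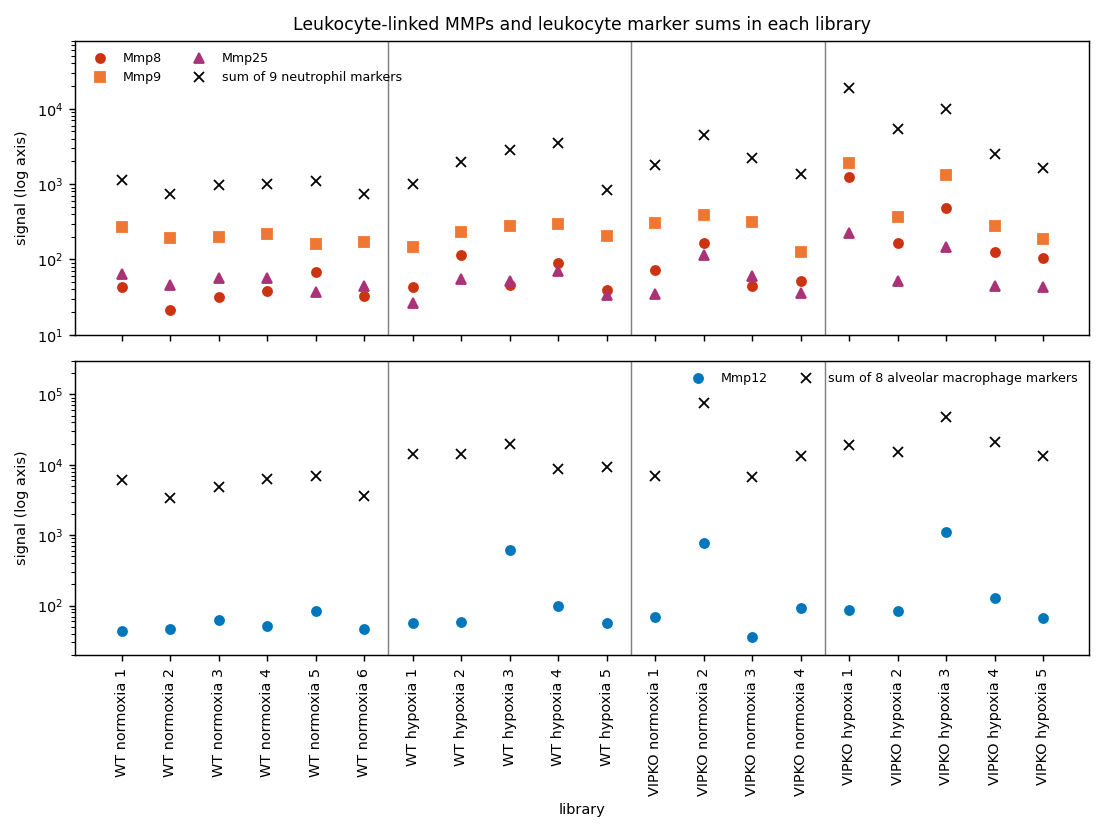
Signal of Mmp8, Mmp9 and Mmp25 with the sum of 9 neutrophil markers (upper panel), and of Mmp12 with the sum of 8 alveolar macrophage markers (lower panel), in each library on log axes. The neutrophil sum and all 3 MMPs of the upper panel are highest in VIPKO hypoxia 1, and Mmp12 is at 618 or more in WT hypoxia 3, VIPKO normoxia 2 and VIPKO hypoxia 3.

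Mmp2 and its activator Mmp14 did not pass in any comparison. Mmp2 ran from 1584 through 1956 to 2103 in WT normoxia and was 755, 1066, 2310, 4253 and 2990 in WT hypoxia, so that libraries 1 and 2 were below and libraries 3 to 5 above all normoxic libraries. It was 2155, 1758, 1994 and 1735 in VIPKO normoxia and 2294, 2396, 1946, 3469 and 3068 in VIPKO hypoxia. Mmp2 changed by -0.01 ± 0.30 in WT and by 0.44 ± 0.33 in VIPKO (adjusted p = 0.982 and 0.593, limma).

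Mmp14 ran from 799 through 1168 to 1406 in WT normoxia and was 741, 822, 982, 1582 and 1037 in WT hypoxia. It was 783, 898, 1074 and 745 in VIPKO normoxia and 931, 892, 1158, 1237 and 983 in VIPKO hypoxia, and all groups overlapped. Its changes lay between -0.37 and 0.25 in the 4 comparisons of groups.

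No TIMP was called by limma in any of the 5 comparisons, and Timp1 alone had an unadjusted p under 0.05, in 2 of them. Timp2 ran from 9524 through 11924 to 12640 in WT normoxia, and was 11173, 12593, 12291, 10608 and 12591 in WT hypoxia. It was 11583, 9961, 8842 and 11643 in VIPKO normoxia and 9643, 8654, 10393, 12430 and 12675 in VIPKO hypoxia. Its groups overlapped throughout, with changes between -0.15 ± 0.11 and 0.06 ± 0.11. The 95% intervals of the 4 comparisons of groups ran from -0.39 at the lowest to 0.29 at the highest.

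Timp3 ran from 17991 through 20698 to 32607 in WT normoxia and was 22969, 32602, 26954, 22187 and 24744 in WT hypoxia. It was 24119, 18719, 17303 and 26938 in VIPKO normoxia and 27254, 25233, 22925, 26000 and 27636 in VIPKO hypoxia, with changes of 0.24 ± 0.14 for hypoxia in WT and 0.27 ± 0.16 in VIPKO. All groups overlapped. Timp3 lies within the Syn3 locus, and exons of the opposite strand overlap over 1733 bases.

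Timp1, the inducible TIMP, was low. It ran from 20.1 through 33.3 to 60.6 in WT normoxia and was 32.5, 45.7, 62.3, 62.2 and 43.4 in WT hypoxia. It was 59.4, 107, 40.6 and 43.1 in VIPKO normoxia and 66.8, 54.3, 106, 87.0 and 93.5 in VIPKO hypoxia. The values of VIPKO hypoxia lay mostly above those of WT hypoxia, but VIPKO hypoxia 2 overlapped them, and the change of 0.72 ± 0.30 did not pass (adjusted p = 0.204, limma). Timp4 was 70.8 to 131 in WT normoxia (median 98.5), 76.8, 120, 101, 117 and 115 in WT hypoxia, 134, 86.4, 63.0 and 73.3 in VIPKO normoxia, and 172, 132, 84.1, 92.3 and 134 in VIPKO hypoxia. Its groups overlapped too.

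Over the 5 comparisons 12 genes were called at least once and 31 tested genes never. The uncalled changes ran from -0.87 to 0.91 for hypoxia in WT, and from -1.07 to 1.08 for VIPKO in normoxia. They ran from -0.59 to 1.85 for hypoxia in VIPKO and from -0.43 to 2.12 for VIPKO in hypoxia.

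Genes that work with these proteases were taken from 3 lists. Of 25 genes for activators, cell surface partners and inhibitors, 23 were tested. In WT hypoxia 3 rose and 2 fell, with a median of 0.12. Bsg, also called EMMPRIN because it induces MMPs, rose by 0.50 ± 0.11, Pcsk6, a proprotein convertase, by 0.75 ± 0.17, and Lcn2, which binds Mmp9, by 1.15 ± 0.35. Thbs1, thrombospondin 1, changed by -0.86 ± 0.21 and Plat, tissue plasminogen activator, by -0.46 ± 0.15. None of the 23 was called by limma in the other 4 comparisons, in which 0 to 7 of them had an unadjusted p under 0.05.

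Of 24 related proteases, 20 were tested. In WT hypoxia 6 rose and none fell, among them Adam28 (0.76 ± 0.19), Ctsk (1.65 ± 0.41), Ctsb (0.46 ± 0.12) and Ctss (0.77 ± 0.20), the last 3 being lysosomal cathepsins of macrophages and other cells. In VIPKO normoxia 3 rose against WT and none fell: Adam28 by 0.84 ± 0.20, Ctsk by 1.62 ± 0.44 and Ctss by 0.74 ± 0.22. Ctsk was 116 to 248 in WT normoxia, 334 to 789 in WT hypoxia, 298 to 1959 in VIPKO normoxia and 498 to 1821 in VIPKO hypoxia, and its highest libraries, VIPKO normoxia 2 and VIPKO hypoxia 3, were 2 of the 3 libraries high in Mmp12. Of the 8 alveolar macrophage markers, 4 were also called higher in each of these comparisons, and their part was not tested.

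Adam15, a membrane-bound metalloprotease of endothelium, was the 1 related protease called in VIPKO hypoxia. It was 1549 to 1926 in VIPKO normoxia and 2955 to 3817 in VIPKO hypoxia, and 1900 to 2357 in WT normoxia and 1967 to 2781 in WT hypoxia. VIPKO hypoxia was above all other groups with no overlap. It rose by 0.96 ± 0.10 with hypoxia in VIPKO (adjusted p = 3.29e-05, limma) and by 0.55 ± 0.09 against WT in hypoxia (adjusted p = 0.0114), and the difference between the genotypes in the response was 0.84 ± 0.13 (adjusted p = 0.0179).

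Of 24 substrates, 21 were tested. Vwf, von Willebrand factor, which tethers platelets and is cut by Adamts13, changed by -0.45 ± 0.14 in VIPKO normoxia (adjusted p = 0.0461, limma), the 1 substrate called there. In VIPKO hypoxia Hapln1, which links versican and aggrecan to hyaluronan, rose by 1.54 ± 0.37 against VIPKO normoxia and by 1.62 ± 0.35 against WT hypoxia. Hapln1 was 33.4 to 92.3 there, against 12.2 to 33.8 in VIPKO normoxia and 11.7 to 28.8 in WT hypoxia. Fn1, fibronectin, was 20186 to 25934 in VIPKO hypoxia and 8519 to 21943 in WT hypoxia, of which the highest was WT hypoxia 4, a change of 0.79 ± 0.17 (adjusted p = 0.0286, limma).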

How the data were processed

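RNA of whole lung was sequenced in 20 libraries. Per the labels' protocols, extraction used the RNeasy Mini Plus kit and library preparation NEBNext Ultra II Directional. The deposited table holds normalized gene counts, treated here as signal, which the authors made with Partek on mm10, per the submitters' processing notes. The aligner, the counting strand and the normalization are not stated in those sources, so no count model was used. Most low values in a library were whole multiples of a step (82.1% to 89.1% of them in 19 libraries and 41.5% in VIPKO hypoxia 2, within 0.05 reads). The steps gave the estimated depths, and limits from them cover counting error only.

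Rows without a gene name (55 rows, 0.00700% of the signal) were left out. Rows reaching 10 in at least 4 libraries (21658) were fitted as log2(signal + 1) with limma 3.58.1 in R 4.3.3, with 4 group means over 20 libraries and a variance trend. Adjusted p-values are Benjamini-Hochberg over all tested rows. Code was tested on simulated data. Levels per kb used exons of the GENCODE vM21 annotation of GRCm38.

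The genes and lists were chosen with earlier results of these data known. For each comparison, up to 8 called genes with the smallest adjusted p, the 4 TIMPs, Mmp2, Mmp8, Mmp9, Mmp12 and Mmp14 were described by library, and from each list up to 4 called genes. Adamts4, Adamts15 and Adamtsl2 were added after their values were seen. Alternatives changed the pseudocount, filter, normalization, variance model, samples fitted and libraries. Those that left out pairs or sets of libraries, or the library labelled VIPKO hypoxia 4 for its Vip value, and the mitochondrial covariate, were chosen after seeing the data. Each library was left out in turn by plan, but the run without WT hypoxia 4 was described in detail after its values were seen. The check of replicate numbers found no regular pairing of the libraries.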

Additional observations from a re-analysis of the deposited data

Results flagged for a closer look

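In 16 of 172 groups of libraries, a single library stood apart from the rest of its group by Dixon's ratio at its 95% critical value, where chance gives about 1 in 20 groups. WT normoxia 5 was that library in 4 of the 16. It was low for Adamts12 (106, next 222) and Mmp11 (372, next 634) and high for Mmp19 (719, next 431) and Timp3 (32607, next 21883). WT hypoxia 4 was high for Adamts9 (1874, next 825) and low for Adamts20 (15.5, next 45.9). Mmp12 was high in WT hypoxia 3 (618, next 97.2) and in VIPKO hypoxia 3 (1117, next 127).

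Mmp16, the matrix metalloprotease that rose in WT hypoxia, was high in WT normoxia 2 (32.6, next 18.9) and in WT hypoxia 2 (76.1, next 39.6). In VIPKO normoxia 4, Mmp15 (4089, next 3624) and Mmp23 (162, next 123) were high. Mmp28 was high in VIPKO normoxia 1 (632, next 560) and Adamts6 in VIPKO hypoxia 2 (288, next 183). Adamtsl3 was low in WT normoxia 2 (558, next 682) and Mmp11 in VIPKO normoxia 2 (519, next 576).

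The response of Adamtsl4 to hypoxia differed between the genotypes by 0.90 on the log2 scale, by the interaction term of the limma fit.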

How the results depend on the processing

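Called genes of the 43 numbered 5 for VIPKO in normoxia, 9 for hypoxia in WT, and 1 each for hypoxia in VIPKO, VIPKO in hypoxia and the difference between responses. The calls of Adamts9, Adamts17, Adamts8 and Adamtsl4 in WT hypoxia were kept in every alternative run. That of Mmp16 was kept in every run that tested it, and the filter of at least 50 left it untested. No called gene changed direction in the comparison that called it, which was checked for called genes only. Leaving out each library in turn gave 1 to 7, 5 to 15, 1 to 2, 0 to 6 and 1 to 7 calls in that order of comparisons. The highest count in each range came without WT hypoxia 4, for VIPKO in normoxia tied with the run without VIPKO hypoxia 3. The lowest count in WT hypoxia came without WT hypoxia 1. Over all tested rows these ranges were 358 to 2549, 1381 to 4711, 88 to 389, 35 to 1348 and 4 to 544. Of these, 4711 and 544 came without WT hypoxia 4. The highest counts 2549, 389 and 1348 came without VIPKO normoxia 1, VIPKO hypoxia 2 and VIPKO hypoxia 3.

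For VIPKO in hypoxia limma called 0 genes with no filter, quantile normalization, no variance trend or only the groups compared, where 14, 13, 13 and 10 genes had an unadjusted p under 0.05. Over all rows these runs called 225, 332, 222 and 9. A filter of at least 50 gave 2, and 465 over all rows. Only the groups compared gave 8 calls for VIPKO in normoxia, and 2201 over all rows. Library weights gave 12, 17, 5, 10 and 13 calls, and 5448, 6590, 717, 1926 and 2228 over all rows (1873, 3173, 216, 350 and 61 without weights). Without the library labelled VIPKO hypoxia 4, 0 genes were called for VIPKO in hypoxia (14 at unadjusted p), and 81 over all rows. Without the 3 libraries lowest in whole-read values, 0 were called in each comparison but hypoxia in WT (7, 10, 12 and 9 at unadjusted p). Over all rows those comparisons had 0, 44, 28 and 0 calls. The mitochondrial covariate gave 0 for VIPKO in normoxia, VIPKO in hypoxia and the difference between responses (3, 9 and 11), with 0, 26 and 0 calls over all rows. Without the muscle and thymus libraries the difference between responses had 2 calls, and 304 over all rows. The cause of these changes was not tested.

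With the replicate number as a block, calls were 2 for VIPKO in normoxia, 5 for hypoxia in WT and 0 for the difference between responses (9 at unadjusted p), where Adamtsl4 had an adjusted p of 0.0540 in limma. Over all rows the block left 682, 1544 and 0 calls in these comparisons. Same-numbered libraries had residual correlations from -0.29 to 0.41, with no regular pairing. The highest was between the VIPKO groups, where 2 of 4 libraries matched best with their own number. Depth limits Adamts4, Mmp16 and Mmp24 most among the called genes.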
